A study of Mus musculus with 6 samples.

Results

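A set of 10 genes of the inflammasome, of pyroptosis and of the interleukin-1 family was described in mouse bone marrow-derived macrophages: Nlrp3, Aim2, Pycard, Casp1, Casp4, Gsdmd, Il1a, Il1b, Il18 and Il1rn. They were taken by symbol from a table of 55023 genes, and all 10 were present and passed the filter on low counts, as did 18812 genes in all. Macrophages grown in culture from marrow were treated for 24 h with LCL161 and LTα1β2 together (2 libraries), with LTα1β2 without LCL161 (2 libraries), or with vehicle (2 libraries), and their RNA was sequenced. LTα1β2 is a lymphotoxin trimer and a natural ligand of LTβR, a receptor of the tumour necrosis factor family that signals to NF-kB. The small molecule LCL161 antagonises cIAP1 and cIAP2, ubiquitin ligases that hold noncanonical NF-kB signalling in check. LCL161 was given only with LTα1β2, so its effect can be read only on top of the ligand. Strain, genotype, age, doses and the number of animals are not stated in the labels used here, nor whether replicates are separate cultures. The p-values therefore measure spread from library to library, and this may be technical.

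Inflammasomes are cytosolic complexes in which a sensor, such as Nlrp3 or Aim2, recruits the adaptor ASC (the product of Pycard), and ASC recruits caspase-1. Active caspase-1 cleaves the precursors of the cytokines IL-1β and IL-18 and the pore-forming protein gasdermin D, and the pores let the cytokines out and can end in pyroptosis, a lytic cell death. Mouse Casp4 encodes the protein also called caspase-11, which binds bacterial lipopolysaccharide in the cytosol and cleaves gasdermin D directly. In macrophages Il1b and Nlrp3 are known to need transcriptional induction, called priming, before the complex can act. Messenger RNA levels bear on that priming and say nothing of cleavage, secretion or cell death.

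Total counts were 14718368 to 19049613 per library. Levels are given as CPM, read counts scaled by library size with TMM factors, where 3 reads correspond to 0.139 to 0.23 CPM. Changes are log2 fold changes with a standard error (SE) from the fit. A gene is said to have risen or fallen where the quasi-likelihood test of edgeR gave a Benjamini-Hochberg adjusted p under 0.05 over all 18812 genes. By that rule 12.8% of all genes rose and 10.6% fell with LTα1β2 against vehicle. On adding LCL161 10.6% rose and 15.1% fell, and with both agents against vehicle 18.4% rose and 21.1% fell. The marker counts that follow are to be read beside these shares. Markers of macrophages (Adgre1, Csf1r, Cd68, Lyz2 and 4 others) summed to 32257 to 33950 CPM with LCL161 plus LTα1β2, 32161 to 32839 CPM with LTα1β2 and 27565 to 33996 CPM with vehicle. Most of this sum was Lyz2 (22313 to 28019 CPM over all libraries), and single markers moved. Of the 8, 3 rose and 3 fell on adding LCL161. With LTα1β2 against vehicle 5 rose and 1 fell, the 1 being near the share of all genes that fell. Adgre1, which encodes F4/80, had 2841 and 2800.4 CPM with LCL161 plus LTα1β2, 2080.2 and 2052 CPM with LTα1β2, and 1406 and 1407 CPM with vehicle. Other cells were present too: 13 stromal markers (Col1a1, Sparc and others, with Lum and Dcn under 1 CPM in every library) summed to 995 to 1026 CPM with LCL161 plus LTα1β2, 3444 to 4811 CPM with LTα1β2 and 8472 to 12019 CPM with vehicle. Of these, 12 were tested, 10 fell when LCL161 was added and 9 fell with LTα1β2 against vehicle. The sums of 10 neutrophil markers, with Ly6g under 1 CPM in every library, were 380 to 403 CPM with LCL161 plus LTα1β2, 865 to 1099.7 CPM with LTα1β2 and 594 to 881 CPM with vehicle, and 7 of the 10 fell when LCL161 was added while 4 rose with LTα1β2 against vehicle. The 6 dendritic cell markers were scarce but ordered by group, with sums of 19.9 to 20.7 CPM with LCL161 plus LTα1β2, 14.1 to 14.5 CPM with LTα1β2 and 8.08 to 9.46 CPM with vehicle, and 4 of the 6 rose with both agents against vehicle. Lymphoid and mast cell markers each summed to at most 37.3 CPM in any library. These shifts run alongside every result below, their part in the results was not tested, and in bulk RNA fewer cells of a type and less RNA per cell cannot be told apart.

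With both agents, all 10 genes were higher than with vehicle, and in every case both libraries lay above both vehicle libraries. In the test, 10 of 10 rose, against a background of 18.4% of all genes that rose, 21.1% that fell and 39.5% called in either direction. The 10 genes were chosen with earlier results of these data known, so their excess over such shares is a description and not a test. Among all genes, 38% had both libraries with the agents above both vehicle libraries. The median log2 change of the 10 genes was 2.60, beside 0.05 for all genes tested. The genes reached these levels by different routes. With LTα1β2 against vehicle 6 of the 10 rose, namely both sensors, the adaptor, both caspases and gasdermin D, beside 12.8% of all genes that rose, 10.6% that fell and 23.4% called in either direction. The 4 IL-1 family genes were not called there. On adding LCL161 to LTα1β2 9 of the 10 rose, all but Pycard, beside 10.6% of all genes that rose, 15.1% that fell and 25.7% called in either direction. None of the 10 fell in these 2 comparisons by edgeR, at an unadjusted p under 0.05 or by DESeq2 or limma voom (0 of 10 in each). By non-overlap alone, 8 of the 10 lay higher and 1, Il1a, lower with LTα1β2 than with vehicle, beside 29.6% and 33.8% of all genes. On adding LCL161 9 lay higher and 0 lower, beside 33.7% and 34.1%. The median log2 change of the 10 genes was 1.12 for LTα1β2 against vehicle, beside -0.04 for all genes, and 1.24 on adding LCL161, beside 0.00 for all genes.

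**Figure D1:**
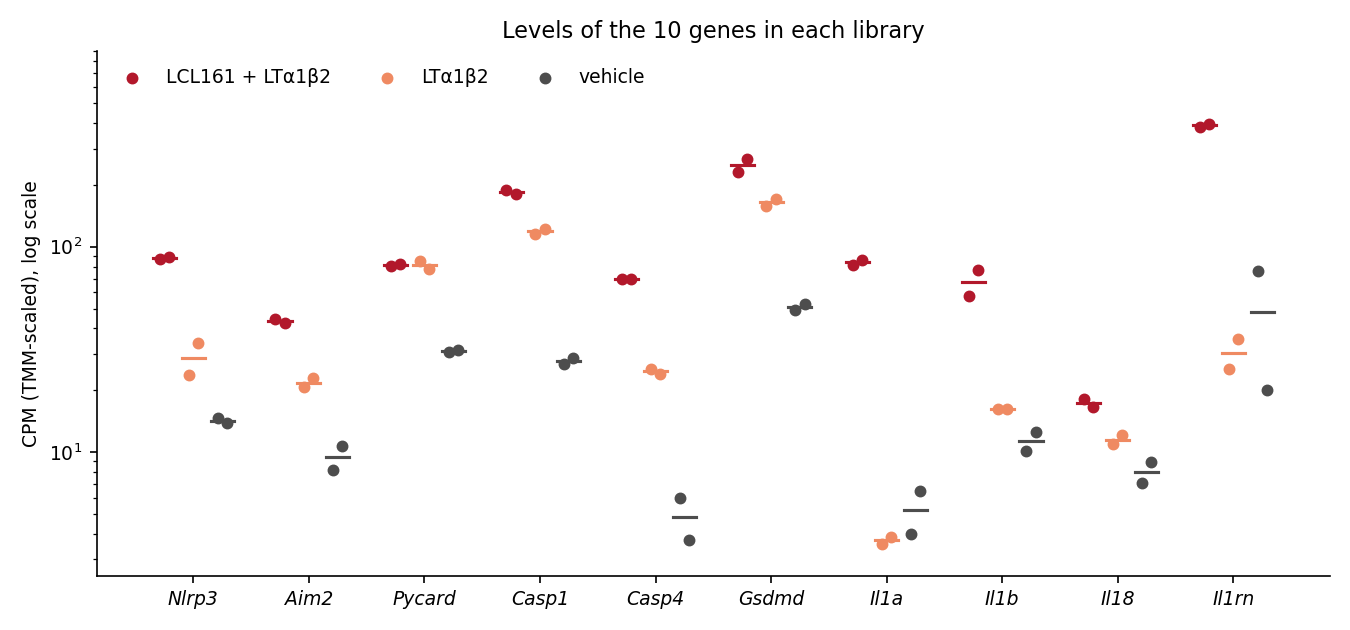
Level of each of the 10 genes in each library, as CPM on TMM-scaled library sizes (log axis). Points are libraries and bars are the means of 2 libraries; Il1a sits at 81.9 and 86.1 CPM with LCL161 plus LTα1β2 and at 6.49 CPM or less in the other 4 libraries, while the Pycard points of both treated groups share 1 level.

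Nlrp3, the sensor that responds to many forms of membrane and organelle stress, had 87.1 and 88.8 CPM with LCL161 plus LTα1β2, 23.7 and 34.1 CPM with LTα1β2, and 14.6 and 13.8 CPM with vehicle. The 3 groups did not overlap, and the LTα1β2 libraries were the most widely spaced. Nlrp3 rose 3.04-fold on adding LCL161 (log2 change 1.60, SE 0.17, edgeR adjusted p = 0.000525) and 2.03-fold with LTα1β2 against vehicle (log2 change 1.02, SE 0.17, edgeR adjusted p = 0.0052). Aim2, the sensor of cytosolic DNA, stood at 44.4 and 42.4 CPM with LCL161 plus LTα1β2, 20.7 and 22.8 CPM with LTα1β2, and 8.19 and 10.7 CPM with vehicle. Its levels thus rose in 2 steps of similar size, 0.997 on the log2 scale (SE 0.15, edgeR adjusted p = 0.00257) on adding LCL161 and 1.21 (SE 0.15, edgeR adjusted p = 0.00151) with LTα1β2 against vehicle. The adaptor gene Pycard behaved otherwise. It had 80.6 and 82.2 CPM with LCL161 plus LTα1β2, 85.3 and 77.7 CPM with LTα1β2, and 30.8 and 31.4 CPM with vehicle. The LCL161 plus LTα1β2 values lay inside the range of the LTα1β2 values, and both groups lay above vehicle. Pycard rose 2.62-fold with LTα1β2 against vehicle (log2 change 1.39, SE 0.10, edgeR adjusted p = 7.91e-05). Its log2 change on adding LCL161 was 0.00, with a 95% interval of -0.23 to 0.22 (edgeR adjusted p = 0.994), so a change of more than 0.23 in either direction lay outside that interval. In GRCm38 on the GENCODE M21 annotation, Nlrp3 lies on chromosome 11 at 59541568 to 59566956, Aim2 on chromosome 1 at 173350879 to 173466040, and Pycard on chromosome 7 at 127989708 to 127993867. Exons of Gm45205 on the other strand cover 12.8% of the exon bases of Pycard, and 3 of its 6 counts were not whole numbers, so part of its count may belong to that gene if strand was not used.

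Casp1, the effector protease of the canonical inflammasome, had 190 and 180 CPM with LCL161 plus LTα1β2, 115 and 122 CPM with LTα1β2, and 26.9 and 28.6 CPM with vehicle. The groups were well apart, and the gap between LTα1β2 and vehicle was the wider one. Casp1 rose 4.27-fold with LTα1β2 against vehicle (log2 change 2.09, SE 0.10, edgeR adjusted p = 1.04e-05) and 1.56-fold on adding LCL161 (log2 change 0.64, SE 0.09, edgeR adjusted p = 0.00254). Casp4, the caspase of the noncanonical pathway, had 69.9 and 69.2 CPM with LCL161 plus LTα1β2, 25.5 and 24.0 CPM with LTα1β2, and 5.97 and 3.73 CPM with vehicle. It climbed in both steps, 5.06-fold with LTα1β2 against vehicle (log2 change 2.34, SE 0.20, edgeR adjusted p = 0.000202) and 2.81-fold on adding LCL161 (log2 change 1.49, SE 0.18, edgeR adjusted p = 0.000938). Both agents together therefore left Casp4 14.2-fold above vehicle (log2 change 3.83, SE 0.20), against 6.65-fold for Casp1 (log2 change 2.73, SE 0.10), with edgeR adjusted p of 6.53e-06 and 1.58e-06. Gsdmd, which encodes the pore-forming gasdermin D, had 232 and 268 CPM with LCL161 plus LTα1β2, 158 and 171 CPM with LTα1β2, and 49.4 and 52.3 CPM with vehicle. Like Casp1, it moved mainly with the ligand: it rose 3.24-fold with LTα1β2 against vehicle (log2 change 1.69, SE 0.11, edgeR adjusted p = 5.15e-05) and 1.52-fold on adding LCL161 (log2 change 0.60, SE 0.11, edgeR adjusted p = 0.00603). That increase on adding LCL161 was not called without LTα1β2 replicate 1 (log2 change 0.48, edgeR adjusted p = 0.0616, within a range of 3.12e-05 to 0.0616 over the 13 alternatives that filter low counts).

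The caspase genes are neighbours. Casp1 lies on chromosome 9 at 5298517 to 5307265 and Casp4 on the same strand at 5308828 to 5336783, with 1562 bases between them, and no exon of either is shared with another gene. Gsdmd lies on chromosome 15 at 75862327 to 75867408. The promoter windows of the neighbouring caspase genes are shown because the genes adjoin and rose in both steps: 250 bases before and 50 after the transcription start, from RefSeq on GRCm38.p6, plus strand, chr9:5298267-5298566 for Casp1 and chr9:5308599-5308898 for Casp4. Capitals mark matches on either strand to GGG, any 2 bases and TTTCC, a form of the kB site bound by NF-kB.
Casp1: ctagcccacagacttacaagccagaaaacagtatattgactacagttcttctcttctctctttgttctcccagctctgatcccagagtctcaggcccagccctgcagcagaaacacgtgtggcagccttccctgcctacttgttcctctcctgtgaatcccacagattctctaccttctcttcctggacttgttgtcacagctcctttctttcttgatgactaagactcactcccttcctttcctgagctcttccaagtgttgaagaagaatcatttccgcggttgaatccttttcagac
Casp4: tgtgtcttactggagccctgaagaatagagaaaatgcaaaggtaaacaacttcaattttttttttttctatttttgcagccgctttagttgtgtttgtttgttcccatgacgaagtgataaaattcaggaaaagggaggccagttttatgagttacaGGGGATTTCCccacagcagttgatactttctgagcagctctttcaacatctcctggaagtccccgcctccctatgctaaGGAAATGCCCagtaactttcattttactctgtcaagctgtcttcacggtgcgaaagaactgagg
The Casp4 window holds 2 matches that do not overlap, from base -93 to -84 on the plus strand and from -14 to -5 on the minus strand, and the Casp1 window holds none. Of 32851 promoter windows of the same length, 1.63% hold a match. Windows were also searched on both strands for GAAA, any 2 bases and GAAA, the core of the interferon-stimulated response element (3.44% of all windows), and TTCNNNGAA, the gamma-activated site (8.3% of all windows). Windows were found for 9 of the 10 genes, 13 windows in all, Gsdmd having no entry. Matches to the last 2 were found in 0 of the 13 windows, and kB matches in windows of Casp4 and Il1rn. A match is a description of letters and not a site shown to be used, and other forms of these elements were not searched.

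Il1a, which encodes IL-1α, an alarmin that signals without needing caspase-1, had 81.9 and 86.1 CPM with LCL161 plus LTα1β2, 3.57 and 3.85 CPM with LTα1β2, and 3.98 and 6.49 CPM with vehicle. Both libraries with LCL161 stood far above the other 4, and the LTα1β2 libraries were the lowest. Il1a rose 22.5-fold on adding LCL161 (log2 change 4.49, SE 0.22, edgeR adjusted p = 2.74e-05), the largest increase among the 10 genes in any comparison. Against vehicle, LTα1β2 alone gave a log2 change of -0.48 that did not pass (95% interval -1.02 to 0.06, edgeR adjusted p = 0.182). Without vehicle replicate 1 this decrease was called (log2 change -0.81, edgeR adjusted p = 0.0366, in a range of 0.0366 to 0.808 over 13 alternatives).

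Il1b, the gene of the main caspase-1 substrate among cytokines, had 57.8 and 76.6 CPM with LCL161 plus LTα1β2, 16.3 and 16.1 CPM with LTα1β2, and 10.1 and 12.5 CPM with vehicle. The libraries with LCL161 differed from each other, as a ratio, more than for any other of the 10 genes in that group, yet both were far above the rest. Il1b rose 4.14-fold on adding LCL161 (log2 change 2.05, SE 0.17, edgeR adjusted p = 0.000228). For LTα1β2 against vehicle its log2 change was 0.52 (95% interval 0.11 to 0.93, edgeR adjusted p = 0.0702), and this passed in 4 of the 13 alternatives that filter low counts, with adjusted p from 0.0244 to 0.392. Il18, which unlike Il1b is known to be expressed at rest in many myeloid cells, had the smallest increase of the 10 genes with both agents against vehicle. It had 18.1 and 16.5 CPM with LCL161 plus LTα1β2, 10.9 and 12.1 CPM with LTα1β2, and 7.04 and 8.92 CPM with vehicle. The groups did not overlap, but the steps were small. Its log2 change was 0.59 on adding LCL161 (SE 0.16, edgeR adjusted p = 0.0325) and 0.53 for LTα1β2 against vehicle (95% interval 0.15 to 0.91, edgeR adjusted p = 0.0532). The change with LTα1β2 against vehicle passed in 4 of the 13 alternatives that filter low counts, with adjusted p from 0.0441 to 0.332. The call on adding LCL161 was lost in 5 of 13 alternatives, with adjusted p from 0.0231 to 0.168. It was 0.129 and 0.067 without LCL161 plus LTα1β2 replicates 1 and 2, 0.168 and 0.123 without LTα1β2 replicates 1 and 2, and 0.0665 under total counts. With both agents Il18 was 2.18-fold above vehicle (log2 change 1.12, SE 0.16, edgeR adjusted p = 0.00118), a call kept in all 14 alternatives.

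Il1rn encodes the IL-1 receptor antagonist, which occupies the IL-1 receptor without signalling. It had 382 and 396 CPM with LCL161 plus LTα1β2, 25.3 and 35.7 CPM with LTα1β2, and 76.5 and 19.9 CPM with vehicle. The vehicle libraries lay on either side of the LTα1β2 libraries, and both libraries with LCL161 lay far above all 4. Il1rn rose 12.7-fold on adding LCL161 (log2 change 3.67, SE 0.55, edgeR adjusted p = 0.00264). With both agents it was 8.04-fold above vehicle (log2 change 3.01, SE 0.53, edgeR adjusted p = 0.003), and this value depended on the vehicle libraries: leaving out vehicle replicate 1 gave a log2 change of 4.24 and leaving out vehicle replicate 2 gave 2.30. For LTα1β2 against vehicle the sign depended on the vehicle libraries. The log2 change was -0.66 with all libraries (95% interval -1.84 to 0.52, edgeR adjusted p = 0.406), 0.61 with vehicle replicate 1 left out and -1.33 with vehicle replicate 2 left out, where it was called (edgeR adjusted p = 0.0053, in a range of 0.0053 to 0.769 over 13 alternatives). Vehicle replicate 1, the library with the high Il1rn, also had the higher stromal sum (12019 CPM, against 8472 CPM in vehicle replicate 2) and the lower neutrophil sum (594 CPM, against 881 CPM); their part in the Il1rn level was not tested.

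Il1rn lies on chromosome 2 at 24336853 to 24351494, Il1a at 129299610 to 129309972 and Il1b at 129364570 to 129371139 of the same chromosome, 54597 bases from Il1a, and Il18 on chromosome 9 at 50554827 to 50581840. Exons of Gm14023 on the other strand cover 11.2% of the exon bases of Il1a, and those of Il1bos cover 1.31% of Il1b. Counts were not whole in 4 libraries for Il1a, 4 for Il18 and 2 for Il1b. The RefSeq promoter windows of the 3 genes with the largest increases on adding LCL161 are shown, at chr2:24345121-24345420 on the plus strand for Il1rn (the most downstream of its 3 windows), chr2:129309923-129310222 on the minus strand for Il1a, and chr2:129371090-129371389 on the minus strand for Il1b. Capitals mark kB matches as before.
Il1rn: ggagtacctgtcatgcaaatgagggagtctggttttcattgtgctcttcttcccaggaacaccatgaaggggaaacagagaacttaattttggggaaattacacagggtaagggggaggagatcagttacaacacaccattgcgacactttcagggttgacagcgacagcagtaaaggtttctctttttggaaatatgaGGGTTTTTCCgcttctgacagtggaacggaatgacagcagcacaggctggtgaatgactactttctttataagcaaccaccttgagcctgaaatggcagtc
Il1a: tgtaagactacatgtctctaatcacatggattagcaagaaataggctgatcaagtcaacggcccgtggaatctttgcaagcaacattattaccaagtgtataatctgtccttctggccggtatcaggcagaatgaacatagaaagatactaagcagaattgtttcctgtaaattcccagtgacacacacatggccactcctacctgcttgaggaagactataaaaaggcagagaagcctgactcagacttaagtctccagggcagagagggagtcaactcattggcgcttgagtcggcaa
Il1b: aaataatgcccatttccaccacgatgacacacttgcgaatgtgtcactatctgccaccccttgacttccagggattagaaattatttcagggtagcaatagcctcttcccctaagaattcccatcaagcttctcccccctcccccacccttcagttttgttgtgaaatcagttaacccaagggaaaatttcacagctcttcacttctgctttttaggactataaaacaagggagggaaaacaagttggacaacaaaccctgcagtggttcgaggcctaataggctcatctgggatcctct
The Il1rn window holds 1 match, from base -51 to -42, and the same letters lie in 1 more of its 3 windows, while the windows of Il1a and Il1b hold none. Gene-level counts do not separate the transcripts that begin at the different Il1rn starts.

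The change on adding LCL161 and the change with LTα1β2 against vehicle share the LTα1β2 libraries, so their difference was tested as 1 contrast in the same fit, a test chosen after the data were seen. The difference is the log2 change on adding LCL161 minus the log2 change with LTα1β2 alone, and it passed for 6 of the 10 genes, beside 13.9% of all genes (3.73% with a positive and 10.2% with a negative difference). The LCL161 step was the larger for Il1a (difference 4.98, SE 0.41, edgeR adjusted p = 0.000345), Il1rn (4.33, SE 0.96, edgeR adjusted p = 0.0244) and Il1b (1.53, SE 0.30, edgeR adjusted p = 0.0162). The ligand step was the larger for Casp1 (difference -1.46, SE 0.16, edgeR adjusted p = 0.00144), Pycard (-1.39, SE 0.16, edgeR adjusted p = 0.00192) and Gsdmd (-1.09, SE 0.18, edgeR adjusted p = 0.00866). The difference did not pass for Casp4 (-0.85, SE 0.31, edgeR adjusted p = 0.123), Nlrp3 (0.58, SE 0.29, edgeR adjusted p = 0.239), Aim2 (-0.21, SE 0.26, edgeR adjusted p = 0.633) or Il18 (0.06, SE 0.28, edgeR adjusted p = 0.913). These differences rested on the LTα1β2 libraries, which enter both steps: 4 of the 10 passed with LTα1β2 replicate 1 left out and 3 with replicate 2 left out. The adjusted p for Il1b was then 0.104 and 0.143, and 0.0519 with vehicle replicate 2 left out. For Il1rn it was 0.129 and 0.127 with the LTα1β2 replicates left out, and for Gsdmd 0.0982 with LTα1β2 replicate 2 left out. With vehicle replicate 1 left out the difference of Casp4 passed (-1.27, edgeR adjusted p = 0.0232). Over the 12 alternatives that filter low counts the adjusted p ran from 0.000332 to 0.143 for Il1b, 0.000231 to 0.129 for Il1rn, 2.85e-05 to 0.0982 for Gsdmd and 0.0232 to 0.335 for Casp4.

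**Figure D2:**
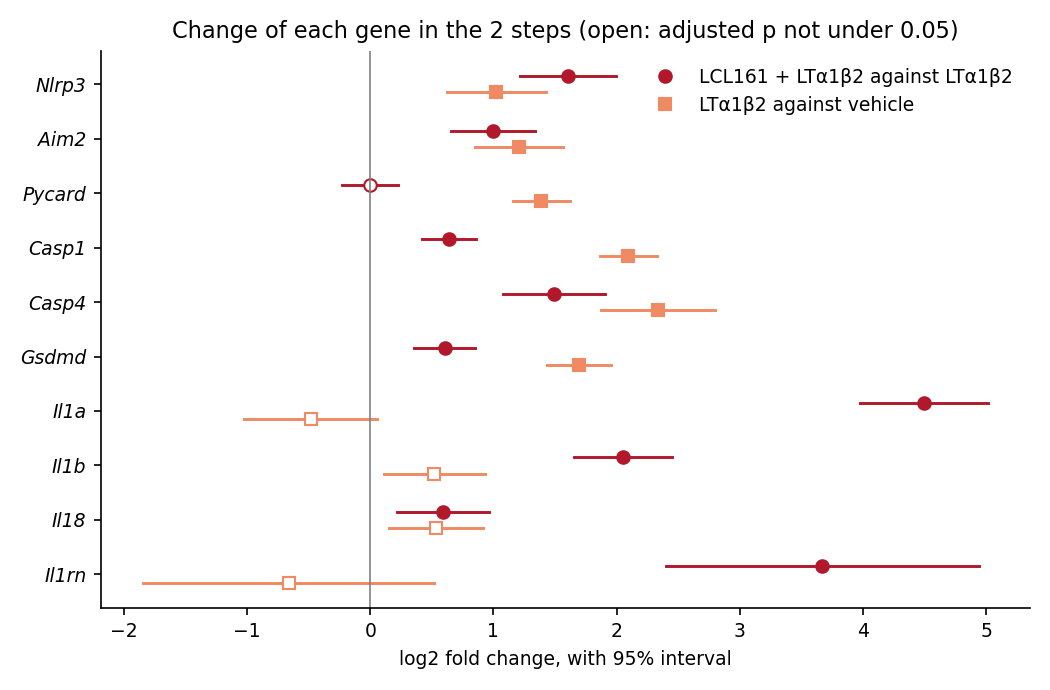
Log2 fold change of each gene on adding LCL161 to LTα1β2 (circles) and with LTα1β2 against vehicle (squares), with 95% intervals from the edgeR fit; filled symbols have an adjusted p under 0.05. Il1a, Il1b, Il18 and Il1rn have filled circles and open squares, Pycard the reverse, and the other sensor, caspase and gasdermin genes have both filled.

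Levels of different genes were compared per kilobase of annotated exon, the union over all transcripts. On this scale Casp1 and Gsdmd were the most abundant 2 of the 10 in each group: with LCL161 plus LTα1β2 they stood at 123 ± 4.71 and 105 ± 10.7 CPM per kb (SD, n = 2), with LTα1β2 at 79.3 ± 3.27 and 69.3 ± 4.06 CPM per kb, and with vehicle at 18.6 ± 0.804 and 21.4 ± 0.856 CPM per kb. The order below them was not the same in each group. Il1a ranked 4 of 10 with LCL161 plus LTα1β2 (42.5 ± 1.51 CPM per kb), 10 of 10 with LTα1β2 (1.88 ± 0.0988 CPM per kb) and 9 of 10 with vehicle (2.65 ± 0.897 CPM per kb). Il1rn ranked 3 of 10 with LCL161 plus LTα1β2 (70.3 ± 1.79 CPM per kb) and 9 of 10 with LTα1β2 (5.51 ± 1.33 CPM per kb). Its vehicle mean of 8.71 ± 7.23 CPM per kb has an SD too wide to place it. Several neighbours in the order did not differ beyond their spread, such as Nlrp3 (21.7 ± 0.286) and Pycard (21.4 ± 0.288) with LCL161 plus LTα1β2, or Casp4 (6.67 ± 0.278), Nlrp3 (7.12 ± 1.81) and Aim2 (6.21 ± 0.435) with LTα1β2, all in CPM per kb. The annotation used in the original counting is not given in the sources used here, so these lengths are approximate. The order rests on them: the union was 5535 bases for Il1rn and 3800 for Pycard, against 1497 for Casp1 and 2377 for Gsdmd. Before division by length, Il1rn had the highest mean with LCL161 plus LTα1β2 (389 CPM, against 250 for Gsdmd and 185 for Casp1). With vehicle, Pycard (31.1 CPM) then stood above Casp1 (27.8 CPM).

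Ratios within a library do not depend on its scaling. Per kilobase, Il1rn stood to Il1b at 2.28 and 1.78 with LCL161 plus LTα1β2, 0.536 and 0.762 with LTα1β2, and 2.61 and 0.548 with vehicle. Per kilobase the antagonist message thus stood above Il1b in both libraries with LCL161 and in vehicle replicate 1, and below it in the other 3 libraries. That order depends on the lengths used, 5535 bases for Il1rn and 1907 for Il1b. In CPM without lengths Il1rn was above Il1b in every library. With LTα1β2 it had 25.3 and 35.7 CPM against 16.3 and 16.1, and in vehicle replicate 2 it had 19.9 CPM against 12.5. Il1a stood to Il1b at 1.37 and 1.09 with LCL161 plus LTα1β2, 0.212 and 0.23 with LTα1β2, and 0.381 and 0.5 with vehicle, with no overlap between any 2 groups. Il1b stood to Il18 at 1.73 and 2.5 with LCL161 plus LTα1β2, 0.806 and 0.722 with LTα1β2, and 0.775 and 0.76 with vehicle. Here both libraries with LCL161 were above the other 4, which lay close together. Casp4 stood to Casp1 at 0.149 and 0.155 with LCL161 plus LTα1β2, 0.0892 and 0.0793 with LTα1β2, and 0.0894 and 0.0525 with vehicle, so the LCL161 libraries were again the highest. With 2 libraries a group these ratios were not tested.

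**Figure D3:**
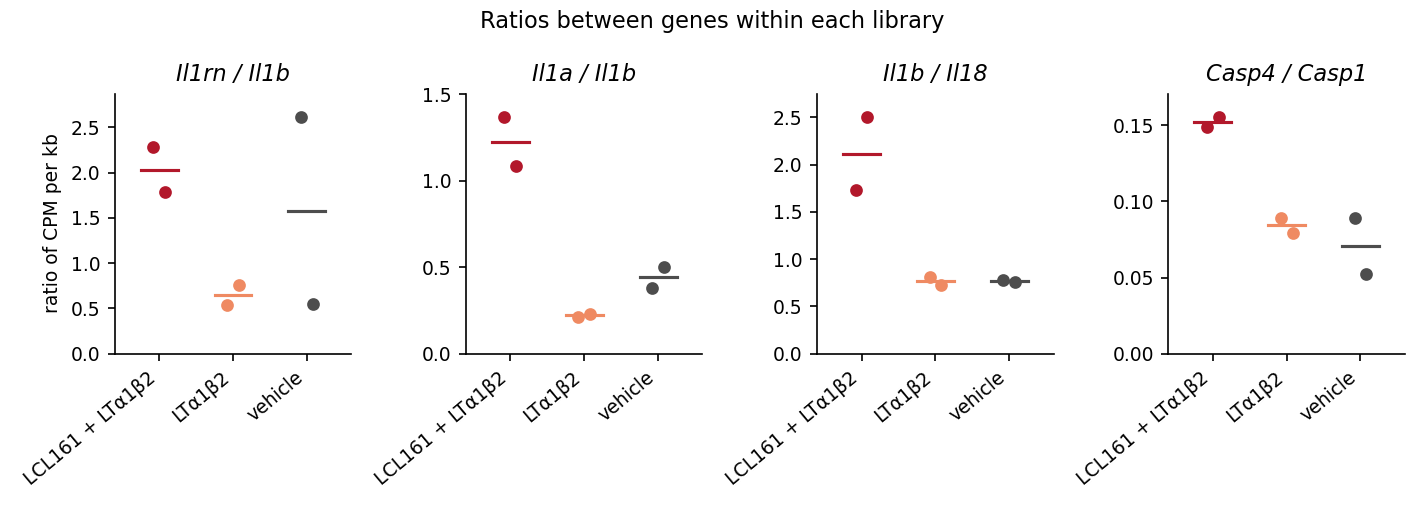
Ratio of CPM per kilobase between 4 pairs of the genes in each library (linear axes from 0); points are libraries, bars the means of 2. In each panel the mean with LCL161 plus LTα1β2 is the highest; in the Il1rn to Il1b panel the vehicle libraries, 2.61 and 0.548, spread over the whole range.

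Other genes around the inflammasome moved in both directions. The lists of these genes were also chosen with earlier results of these data known. Their counts are to be read beside the shares of all genes, 12.8% risen and 10.6% fallen with LTα1β2 against vehicle, and 10.6% risen and 15.1% fallen on adding LCL161. Of 17 further sensors and adaptors tested, 10 rose and only Nlrc3 fell with LTα1β2 against vehicle (median log2 change 0.85), and 5 rose and 3 fell on adding LCL161 (median 0.14), the 3 being near the share of all genes. Mefv, which encodes the sensor pyrin, had 64.4 and 65.2 CPM with LCL161 plus LTα1β2, 20.8 and 21.3 CPM with LTα1β2, and 8.43 and 10.1 CPM with vehicle. Like Aim2 it rose in both steps, by 1.62 on the log2 scale on adding LCL161 (SE 0.12, edgeR adjusted p = 0.000147) and 1.19 with LTα1β2 against vehicle (SE 0.13, edgeR adjusted p = 0.000627). The NAIP proteins bind bacterial flagellin and secretion-system proteins and signal through Nlrc4. Naip2 had 82.7 and 74.1 CPM with LCL161 plus LTα1β2, 43.5 and 41.5 CPM with LTα1β2 and 21.2 and 26.5 CPM with vehicle. Its partner Nlrc4 had 36.3 and 33.9 CPM with LCL161 plus LTα1β2, 23.0 and 21.9 CPM with LTα1β2 and 12.5 CPM in both vehicle libraries. Both rose in each step, while Naip5 and Naip6 were called in no comparison. Counts of the 4 Naip genes were not whole in any library, so how reads were divided among these paralogs is uncertain. That includes Naip1, which rose on adding LCL161 (3.94 and 6.20 CPM, against 0.83 and 0.428 CPM with LTα1β2, edgeR adjusted p = 0.00203). Among genes named below, counts of Ifi204, Cflar and Ikbkg were also not whole in any library, and those of Gbp2 in 4 libraries. Nod1, a sensor of bacterial peptidoglycan fragments, had 135 and 141 CPM with LCL161 plus LTα1β2, 119 and 131 CPM with LTα1β2, and 20.7 and 23.2 CPM with vehicle. Ifi204 and Zbp1, sensors of nucleic acids, rose with LTα1β2 against vehicle (log2 change 2.36 and 5.46, edgeR adjusted p = 3.12e-05 and 0.000262). Neither passed on adding LCL161 (0.14 and 0.48). The change of Zbp1 was 6.83 with vehicle replicate 1 left out and 4.81 with vehicle replicate 2 left out, with adjusted p from 6e-13 to 0.00199 over 13 alternatives. On adding LCL161 Zbp1 had 323 and 349 CPM, against 221 and 262 CPM with LTα1β2. The 95% interval of that change, -0.42 to 1.37, is wide enough to hold a further increase. The 3 that fell on adding LCL161 were Nlrp1b, Nlrp10 and Nlrx1.

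Of 15 regulators of inflammasome assembly tested, 7 rose and 0 fell with LTα1β2 against vehicle by edgeR (0 also at an unadjusted p under 0.05, by DESeq2 and by limma voom; median log2 change 0.41), and 4 rose and 3 fell on adding LCL161 (median 0.01). The shares of all genes were 12.8% risen and 10.6% fallen with LTα1β2, and 10.6% risen and 15.1% fallen on adding LCL161. Gbp2, a guanylate-binding protein that helps expose bacterial lipopolysaccharide to caspase-11, had 2273 and 2343 CPM with LCL161 plus LTα1β2, 2292 and 2449 CPM with LTα1β2, and 14.03 and 8.32 CPM with vehicle. Gbp5 had 1093 and 780 CPM with LCL161 plus LTα1β2, 279 and 321 CPM with LTα1β2, and 2.45 and 0.595 CPM with vehicle. Both rose with the ligand, and Gbp5 rose again on adding LCL161 (log2 change 1.64, SE 0.31, edgeR adjusted p = 0.00744). Against vehicle the log2 change of Gbp5 was 9.21 with both agents, and 10.55 and 8.52 with vehicle replicates 1 and 2 left out in turn. With LTα1β2 alone it was 7.57, and 8.96 and 6.93 with those libraries left out. Inhibitors of proteases and caspases did not move together. Cflar, which encodes the caspase-8 regulator cFLIP, had 449 and 433 CPM with LCL161 plus LTα1β2, 94.4 and 117 CPM with LTα1β2, and 81.4 and 82.3 CPM with vehicle. Serpinb9, an inhibitor of granzyme B, had 367 and 357 CPM with LCL161 plus LTα1β2, 129 and 132 CPM with LTα1β2, and 23.6 and 29.0 CPM with vehicle. Both rose on adding LCL161 (log2 change 2.06, SE 0.12 for Cflar and 1.47, SE 0.11 for Serpinb9; edgeR adjusted p = 5.86e-05 and 0.000166). Serpinb1a, an inhibitor of neutrophil proteases, fell on adding LCL161 (log2 change -2.22, SE 0.43, edgeR adjusted p = 0.00892). Its levels were 0.292 and 0.919 CPM with LCL161 plus LTα1β2 and 2.81 and 2.83 CPM with LTα1β2. In that step 7 of 10 neutrophil markers fell too. With LTα1β2 against vehicle 4 of the 10 rose, while Serpinb1a was not called (log2 change -0.28). A link between the 2 was not tested. P2rx7, the ATP-gated channel whose opening triggers Nlrp3, had 39.8 and 41.2 CPM with LCL161 plus LTα1β2, 77.1 and 73.0 CPM with LTα1β2, and 59.3 and 65.9 CPM with vehicle. It fell on adding LCL161 (log2 change -0.89, SE 0.10, edgeR adjusted p = 0.000855), as did Txnip (-0.72, SE 0.09, edgeR adjusted p = 0.00138). Txnip had risen with LTα1β2 against vehicle (log2 change 0.61, edgeR adjusted p = 0.00324). With both agents Txnip was not called against vehicle (50.9 and 52.2 CPM, against 54.4 and 56.9 CPM). P2rx7 with both agents was below vehicle (log2 change -0.63, edgeR adjusted p = 0.00217). Nek7, the kinase that bridges Nlrp3 subunits, was called in no comparison (133 and 116 CPM with LCL161 plus LTα1β2, 130 and 117 CPM with LTα1β2, 138 and 140 CPM with vehicle).

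Among 13 other caspases, gasdermins and lytic death genes tested, 6 rose and 0 fell with LTα1β2 against vehicle by edgeR (0 also at an unadjusted p under 0.05, by DESeq2 and by limma voom; median log2 change 0.24), and 2 rose and 4 fell on adding LCL161 (median -0.10). Of all genes, 12.8% rose and 10.6% fell with LTα1β2, and 10.6% rose and 15.1% fell on adding LCL161. The 2 that rose on adding LCL161 are near that background. Ninj1, whose product ruptures the membrane late in lytic death, rose in both steps. It had 1073 and 1338 CPM with LCL161 plus LTα1β2, 711 and 733 CPM with LTα1β2, and 361 and 489 CPM with vehicle. Mlkl, the pore protein of necroptosis, had 79.8 and 78.9 CPM with LCL161 plus LTα1β2, 54.9 and 64.7 CPM with LTα1β2, and 19.8 and 15.5 CPM with vehicle. Mlkl rose with LTα1β2 against vehicle (log2 change 1.76, SE 0.15, edgeR adjusted p = 0.000194). On adding LCL161 it was not called (log2 change 0.41, SE 0.14, edgeR adjusted p = 0.0706). Its kinase partner Ripk3 fell on adding LCL161, with 22.3 and 24.97 CPM against 46.5 and 49.8 CPM with LTα1β2 (log2 change -1.03, SE 0.11, edgeR adjusted p = 0.000635). Gsdme, another gasdermin, fell too, to 9.85 and 10.9 CPM with LCL161 plus LTα1β2, against 24.4 and 19.03 CPM with LTα1β2 (log2 change -1.06, SE 0.16, edgeR adjusted p = 0.00267). Casp12 and Casp2 rose with the ligand and fell on adding LCL161. Casp12 had 4.67 and 3.83 CPM with LCL161 plus LTα1β2, 14.2 and 16.8 CPM with LTα1β2, and 6.11 and 3.46 CPM with vehicle. Casp8 was called in no comparison.

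Fewer of the other IL-1 family genes were expressed. Of 15 ligands, receptors and antagonists in the table, 9 passed the filter on low counts. Il33 and the genes Il1f5, Il1f6, Il1f8 and Il1f10 had 2 to 33 reads each over all 6 libraries together, and Il18r1 had 35. With LTα1β2 against vehicle Il18bp, Il1r2 and Il18rap rose and Il1r1 and Il1rl1 fell, and on adding LCL161 only Il18rap was called by edgeR, and it fell (0 rose, against 1 at an unadjusted p under 0.05, 1 by DESeq2 and 0 by limma voom). Among all genes tested, 12.8% rose and 10.6% fell with LTα1β2, and 10.6% rose and 15.1% fell on adding LCL161. Il18bp, which encodes a soluble decoy that binds IL-18, had 484 and 534 CPM with LCL161 plus LTα1β2, 469 and 456 CPM with LTα1β2, and 41.3 and 65.0 CPM with vehicle. It rose with LTα1β2 against vehicle (log2 change 3.12, SE 0.20, edgeR adjusted p = 5.15e-05), and its log2 change on adding LCL161 was 0.14. Il18bp thus stood near its final level with the ligand alone, whereas Il1rn rose on adding LCL161. The rise of Il1r2 rested on few reads, 24 in each LTα1β2 library. It had 1.53 and 1.28 CPM with LTα1β2 and 0.37 and 0.432 CPM with vehicle (log2 change 1.79, SE 0.52, edgeR adjusted p = 0.0427). In that comparison edgeR called 3 genes of this list higher and DESeq2 called 2. The signalling receptor gene Il1r1 was scarce, with 4.16 and 2.37 CPM with LCL161 plus LTα1β2, 2.94 and 2.99 CPM with LTα1β2, and 7.64 and 6.43 CPM with vehicle. Its decrease against vehicle with both agents (log2 change -1.10, SE 0.27, edgeR adjusted p = 0.0137) was not called without vehicle replicate 1 (0.0619, in a range of 0.00255 to 0.0619 over 13 alternatives). Stromal cells express Il1r1 too, and 10 of 12 stromal markers tested fell in that comparison. On adding LCL161, 10 of 12 stromal markers fell as well, while Il1r1 was not called (log2 change 0.14, edgeR adjusted p = 0.739). The part of stromal cells in the Il1r1 level was not tested. Il1rl1, the IL-33 receptor gene, had a log2 change of -2.10 with LTα1β2 against vehicle (edgeR adjusted p = 0.0119) that was -2.64 and -1.28 with vehicle replicates 1 and 2 left out in turn and lost its call without LTα1β2 replicate 1 (0.0864), with adjusted p from 2.37e-05 to 0.0864 over 13 alternatives. The call of Il18rap in that comparison was lost without vehicle replicate 1 (0.0508, in a range of 0.00128 to 0.0508).

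The IL-1 receptor shares its signalling chain with Toll-like receptors. Of 20 genes of this chain, 3 rose with LTα1β2 against vehicle and 6 on adding LCL161, and 0 fell in either by edgeR (0 and 1 at an unadjusted p under 0.05, 0 by DESeq2 and by limma voom; median log2 change 0.24 in each). The 3 are near the 12.8% of all genes that rose with LTα1β2, and 10.6% of all genes rose on adding LCL161. The 0 that fell stand beside 10.6% of all genes that fell with LTα1β2 and 15.1% that fell on adding LCL161. Myd88, the receptor adaptor, had 121 and 140 CPM with LCL161 plus LTα1β2, 107 and 108 CPM with LTα1β2, and 59.7 and 62.5 CPM with vehicle. It rose with the ligand (log2 change 0.81, SE 0.10, edgeR adjusted p = 0.00156) and was not called on adding LCL161. Irak2, Irak3, Traf6, Ikbkg, Nfkbia and Tnfaip3 were the 6 that rose with LCL161. Among them are feedback inhibitors: Irak3, which encodes the inhibitory kinase IRAK-M, Nfkbia, which encodes IκBα, and Tnfaip3, which encodes A20. Tnfaip3 had 291 and 310 CPM with LCL161 plus LTα1β2, 51.8 and 66.6 CPM with LTα1β2, and 57.2 and 54.8 CPM with vehicle. Nfkbia had 706 and 881 CPM with LCL161 plus LTα1β2, 153 and 179 CPM with LTα1β2, and 123 and 150 CPM with vehicle. In both genes the libraries with LCL161 lay far above the other 4, and neither gene was called with LTα1β2 against vehicle. Map3k7 and Tab2, the other 2 that rose with LTα1β2 against vehicle, lost that call without single libraries. The adjusted p of Map3k7 was 0.0645 and 0.0988 with LTα1β2 replicates 1 and 2 left out in turn, and 0.146 and 0.0713 with the vehicle replicates left out, in a range of 7.74e-05 to 0.146 over 13 alternatives. That of Tab2 was 0.239 with LTα1β2 replicate 2 left out, 0.181 and 0.174 with the vehicle replicates left out, 0.169 under total counts and 0.0503 with the replicate block, in a range of 0.0237 to 0.239.

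**Figure D4:**
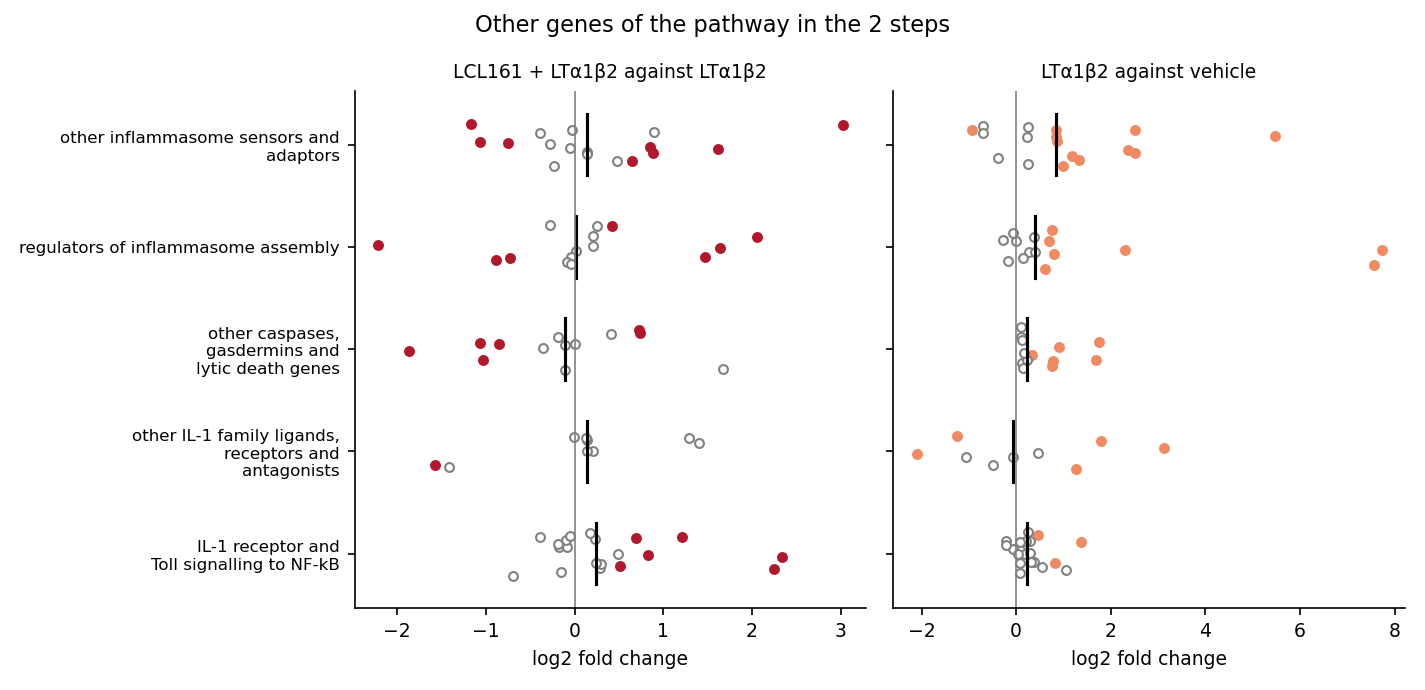
Log2 fold change of each tested gene in 5 lists of related genes, on adding LCL161 to LTα1β2 (left) and with LTα1β2 against vehicle (right). Filled points have an edgeR adjusted p under 0.05, open points do not, and black bars are medians. The sensor list shifts most with the ligand (median 0.85). The signalling list has no filled point below 0 in either panel, beside 15.1% (left) and 10.6% (right) of all genes that fell.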

How the data were processed

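Per gene symbol, the authors deposited expected counts for 6 libraries (mouse bone marrow-derived macrophages, 24 h), unnormalised, with 66.6% of non-zero values whole. STAR 2.7.3a, DESeq2 1.26.0 and GRCm38 are named in the submitters' processing notes. The counting program, annotation and use of strand were not found in the labels or headers. Counts were rounded, and filterByExpr (minimum 10 reads) kept 18812 of 55023 genes. All 3 comparisons came from 1 group-means model of the 6 libraries in edgeR 4.0.16 (R 4.3.3; TMM factors 0.874 to 1.15; glmQLFit and glmQLFTest, two-sided; Benjamini-Hochberg over all genes tested). SE is the log2 change over the root of F. Replicates differed by more than counting error (chi-square per degree of freedom 8.89 to 16.8). Alternatives used limma 3.58.1 (voom), DESeq2 1.42.0, other scalings, filters and sample sets. Members and lists were chosen with earlier results of these data known. All 10 members are named, and of each list up to 3 called genes with the smallest p per comparison; other list genes were named after their values were seen. Some genes of the lists are counted but not reported by name here. Positions are from GENCODE M21 by symbol, promoter windows from RefSeq (GRCm38.p6).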

Additional observations from a re-analysis of the deposited data

How the results depend on the processing

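Of 30 changes (10 genes in 3 comparisons), 23 kept their direction and their side of the threshold in all 14 alternatives: relative log expression factors, total counts, DESeq2, limma voom, 2 other filters, only the groups compared, the replicate block and each library left out. Of 420 values, 393 kept both, 7 lost a call, 13 gained one and 7 turned their sign. With no filter beyond 1 read, edgeR's prior degrees of freedom were infinite, against 4.59 with the filter, and the moderated quasi-dispersion of Il1rn was 0.524, against 8.24; p-values of that fit overlook the spread of single genes, and ranges of p leave it out. All 10 genes were called with both agents against vehicle in each alternative. Where no single library was left out, 8 or 9 were called on adding LCL161. Fewer were called in that step with LTα1β2 replicate 1 left out. For LTα1β2 against vehicle, 6 to 8 were called where no single library was left out, and 9 with no filter. The 9 include Il1rn, which was lower there (log2 change -0.57). The replicate block called 10, 9 and 7 in these comparisons, adding Il1b with LTα1β2 (adjusted p = 0.0454); same-numbered libraries deviated with correlations of 0.0941 to 0.157, and the labels do not explain the numbers. The sign of Pycard on adding LCL161 (0.00) turned to 0.0017 with relative log expression factors, 0.00196 with DESeq2, 0.0012 with limma voom, 0.045 with at least 1 CPM in 2 libraries and 0.0075 with only the groups compared, and lay between -0.10 and 0.0012 with a library left out. For LTα1β2 against vehicle Il1rn lay between -1.33 and 0.61 with a library left out. In the difference between steps Il18 was -0.16 with no filter and -0.22 to 0.18 with a library left out, Nlrp3 was -0.035 to 1.13, and 3 to 7 genes passed. Causes were not tested. Total counts moved the median of all genes to -0.23, -0.12 and -0.26 (LTα1β2 against vehicle, LCL161 added, both agents), against -0.04, 0.00 and 0.05. Genes called among all 18812 numbered 4401, 4832 and 7431 in these comparisons and 2617 for the difference. Each number was lower in some fits with a library left out, where the filter was run again on the libraries kept. With no filter the difference called 4103, but of 47056 genes tested. With LTα1β2 against vehicle, list counts ranged from 1 to 8 for IL-1 receptor and Toll signalling (3 with all libraries), 2 to 6 for other IL-1 family genes (5), 3 to 6 for other caspases and gasdermins (6) and 4 to 8 for regulators (7). On adding LCL161 they ranged from 5 to 9 for sensors (8) and 1 to 2 for other IL-1 family genes (1), which with both agents ranged from 2 to 4 (2).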
